A study of Mus musculus with 11 samples.

Results

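The Hox genes were followed through adipogenesis of im-scWAT cells and in im-scWAT adipocytes that carried mutant JMJD1A. Members were the protein-coding genes of the HoxA, HoxB, HoxC and HoxD clusters with 1 representative transcript each, read on the sense strand. This rule found 39 genes among the 21452 coding gene symbols measured, with 11 in HoxA, 10 in HoxB, 9 in HoxC and 9 in HoxD.

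Hox genes encode homeodomain transcription factors. In each cluster the order of the genes along the chromosome follows the order in which they are used along the body axis, so that low-numbered (anterior) paralog groups act towards the head and high-numbered (posterior) groups towards the tail and the ends of the limbs. Adult mesenchymal cells in culture are known to keep Hox patterns that mirror their place of origin, and fat depots differ in the Hox genes that they express.

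The im-scWAT line derives from inguinal subcutaneous preadipocytes of mice, immortalized with SV40 large T antigen. The time course held 6 samples, namely 2 of confluent preadipocytes at day 0, and 1 each at days 4 and 8 of differentiation with rosiglitazone (ROS, a PPARγ ligand, 0.5 μM) or without it. The 5 transduced samples were all taken at day 8 of differentiation with ROS, from cells that carried an shRNA against mouse Jmjd1a (Kdm3a) and a retrovirus for human JMJD1A, a histone H3 lysine 9 demethylase. The human protein was wild type in 2 samples (WT A and WT B), and S265A (alanine in place of the serine, so that the site cannot be phosphorylated), S265D (its phosphomimetic form) or S265D-H1120Y (the latter without demethylase activity) in 1 sample each. The labels do not say whether samples came from separate cultures or infections, so the p-values measure the spread between these samples, which may be technical. In the time course this spread came from the day 0 pair and from how far the ROS difference changed between days 4 and 8. No differentiated group of the time course had a replicate. ROS was withdrawn for the last day before day 8 by the sample labels, whereas the paper's methods keep it in the medium to day 8.

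Mapped sequence per sample went from 3.10 to 5.29 Gb. Levels are FPKM, which is scaled by exon length and depth, so that levels of different genes can be compared. Adipocyte markers marked the course of differentiation, with a summed FPKM over 8 genes of 282 to 285 at day 0 and of 9703 to 34641 at days 4 and 8. The 8 preadipocyte or fibroblast markers summed to 977 to 1051 FPKM at day 0, 233 to 825 at days 4 and 8 and 302 to 816 in the transduced samples, with 5 lower and 2 higher at day 8. Of 6 leukocyte markers, Ptprc and Emr1 were at 0 in all 11 samples, while Cd68 was called higher at day 8 and the list summed to 2.51 to 2.63, 0.541 to 4.34 and 5.05 to 21.7 FPKM in these 3 sets. Of 5 muscle markers, Myod1 and Myog were at 0 throughout, while Des, Myh11 and Acta1 were all higher at day 8 and the list summed to 0.682 to 0.814, 5.20 to 13.7 and 10.3 to 32.5 FPKM. The part of these markers in the Hox results was not tested. Kdm3a, the target of the shRNA, was at 15.1 to 23.2 FPKM in the time course and 13.0 to 28.5 FPKM in the transduced samples, ranges that overlap, and whether reads of the human gene contribute was not tested. WT A stood apart from the other transduced samples at several Hox genes, and the cluster and group shares are given with and without it.

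Sequence just upstream of the genes is shown for 3 members on which the results turn, namely Hoxc5 and Hoxa4, which fell and rose during differentiation, and Hoxa13, which was high in WT A. Each stretch is the 250 bases before the most upstream annotated start near the deposited transcript (mm9), written 5′ to 3′ on the strand of the gene, with CpG dinucleotides in capitals. Hoxc5 lies on chr15:102843996-102844245 (+ strand), Hoxa4 on chr6:52141753-52142002 (− strand) and Hoxa13 on chr6:52210875-52211124 (−). None of the 3 stretches overlaps an exon in GENCODE M1.
Hoxc5: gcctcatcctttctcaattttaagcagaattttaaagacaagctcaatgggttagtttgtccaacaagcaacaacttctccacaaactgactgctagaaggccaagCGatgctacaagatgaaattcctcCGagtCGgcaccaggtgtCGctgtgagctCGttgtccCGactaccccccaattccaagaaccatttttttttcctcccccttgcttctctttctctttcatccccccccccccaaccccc
Hoxa4: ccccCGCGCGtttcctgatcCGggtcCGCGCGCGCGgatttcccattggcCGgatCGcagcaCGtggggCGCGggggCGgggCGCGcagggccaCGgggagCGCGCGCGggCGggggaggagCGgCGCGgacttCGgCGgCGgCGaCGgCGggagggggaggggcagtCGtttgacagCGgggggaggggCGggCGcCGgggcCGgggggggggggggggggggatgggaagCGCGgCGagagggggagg
Hoxa13: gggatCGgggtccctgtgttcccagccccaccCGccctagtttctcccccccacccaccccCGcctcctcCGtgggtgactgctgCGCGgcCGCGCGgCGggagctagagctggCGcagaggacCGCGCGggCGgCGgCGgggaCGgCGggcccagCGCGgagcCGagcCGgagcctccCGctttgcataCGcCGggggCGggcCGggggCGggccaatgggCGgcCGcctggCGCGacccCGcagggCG

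The stretches differed in CpG content. Hoxa4 held 41 CpG, Hoxa13 held 35 and Hoxc5 held 6, against a median of 9 over the 19853 coding genes read the same way and of 14 over the 12475 tested ones. Among 38 Hox members the count went from 1 (Hoxb3) to 41, with a median of 11.5, and the 29 tested members had a median of 12, above that of all coding genes and below that of tested genes. The remaining member, Hoxc4, was left out because the deposited transcript starts at an internal exon. A CCAAT box (CCAAT, both strands) was present in 24 of 38 members and in 35.8% of all stretches. A TATA box (TATAAA, both strands) was present in 7 of 38, against 11.8%. The composite PBX-HOX site TGATTNAT (both strands) was found in 1 member, Hoxb9, against 2.58% of all stretches, and the nuclear receptor hexamer AGGTCA (both strands) in 3 members, against 12.2%. These matches describe letters in a short window and were not tested.

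HoxC carried the largest share of the Hox sum on average, between 38.9% and 60.4% by sample. HoxA and HoxB carried a smaller share each, and HoxD almost none. Of the 39 genes, 27 had a mean FPKM of at least 1 over the 11 samples (25 without WT A), namely all 9 of HoxC, 9 of 11 of HoxA, 8 of 10 of HoxB and 1 of 9 of HoxD. A further 3, Hoxa2, Hoxa13 and Hoxb13, had a mean of at least 0.1. The 5 genes Hoxb1, Hoxd1, Hoxd11, Hoxd12 and Hoxd13 were at 0 in all samples. Hoxd3, Hoxd4, Hoxd9 and Hoxd10 stayed below a mean of 0.1, with a highest value of 0.255 FPKM for Hoxd9. A read of about 100 bases on 2 kb of exon equals an FPKM of 0.00944 to 0.0161, so lower levels of these genes were not detectable at this depth.

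**Figure D1:**
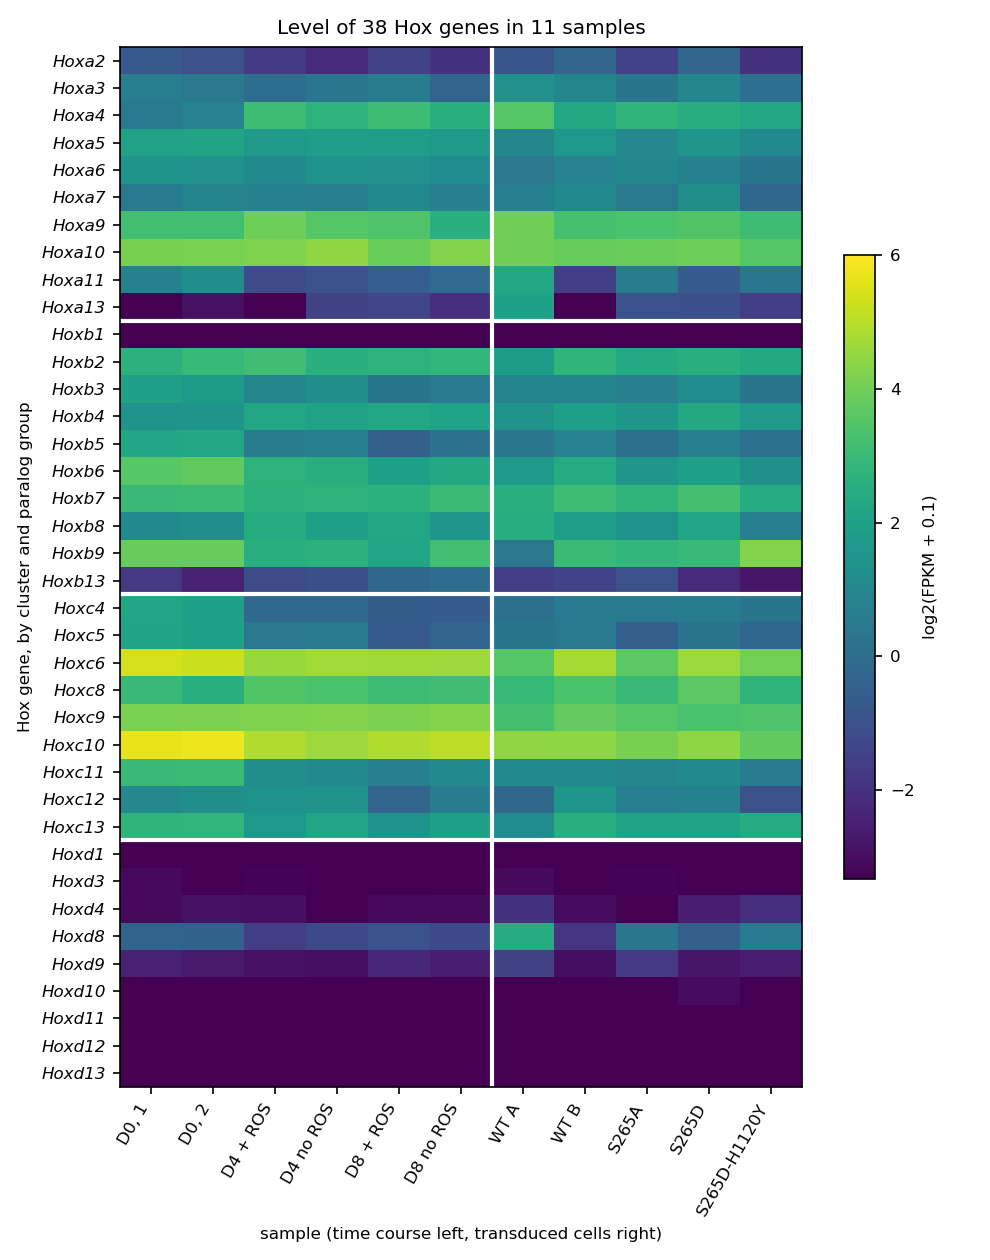
Level of 38 Hox genes (rows, by cluster and paralog group) in the 11 samples (columns), as log2(FPKM + 0.1), with time-course samples on the left and transduced samples on the right of the white vertical line. HoxC holds the brightest rows, Hoxc10 and Hoxc6, and all rows of HoxD other than Hoxd8 stay near the bottom of the scale.

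As a share of the summed Hox FPKM, averaged over the 11 samples, HoxC made up 50.3%, HoxA 26.3%, HoxB 22.6% and HoxD 0.762%, and without WT A these shares were 51.5%, 24.9%, 23.2% and 0.444%. HoxC led in every sample other than WT A, where HoxA made up 40.6% and HoxC 38.9%. HoxD was highest in WT A, at 3.94%, and had its low of 0.132% in WT B. By sum, HoxC went from 143 and 141 FPKM in the 2 day 0 samples to between 87.1 and 94.8 in the 4 later time-course samples, HoxB went from 53.7 and 55.6 to between 32.5 and 40.7, and HoxA from 39.5 and 40.8 to between 40.4 and 51.6. These sums were not tested. The day 0 and later ranges do not overlap for HoxC and HoxB, and they do for HoxA.

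**Figure D2:**
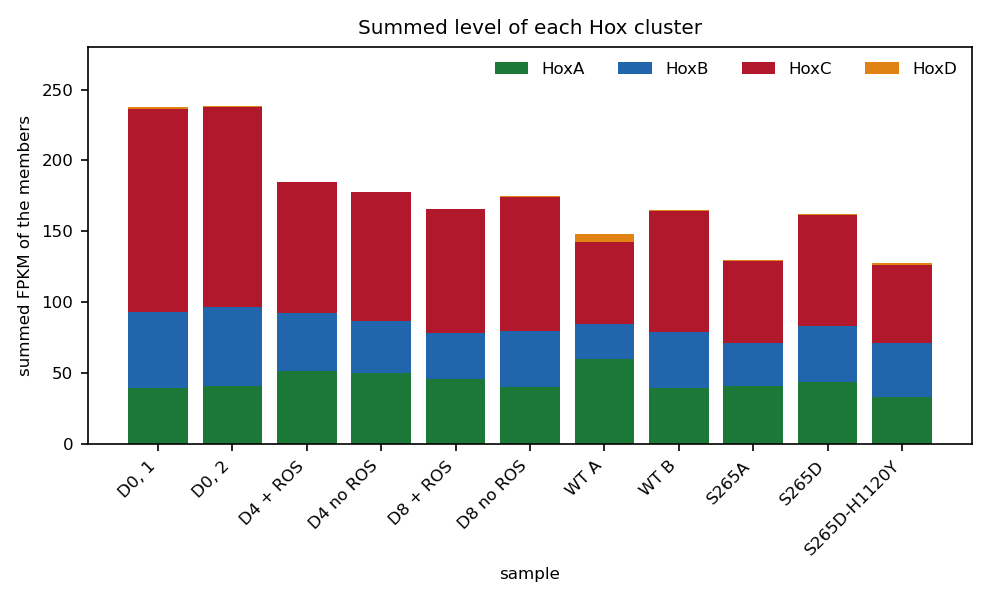
Summed FPKM of the members of each Hox cluster in each of the 11 samples, as stacked bars. The whole Hox sum was 237 and 239 FPKM at day 0, 166 to 185 at days 4 and 8, and 128 to 165 in the transduced samples, and HoxC is the largest block in every bar other than WT A.

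By paralog group, the members of group 10 together made up 25.5% of the Hox sum, those of group 9 made up 20.2%, and those of group 6 made up 18.0% (25.6%, 20.4% and 18.7% without WT A). Groups 1 to 5 made up at most 6.79% each. Their strongest genes by mean over the 11 samples were Hoxb2, Hoxa4 and Hoxb4 (6.15, 5.96 and 3.66 FPKM). At day 0, Hoxa5, Hoxb3, Hoxb5, Hoxc4 and Hoxc5 lay above Hoxa4 and Hoxb4. The 3 most abundant members held 33.7% to 46.4% of the sum in a sample. Hoxc10 was the highest member in 7 of 11 samples, Hoxc6 in the day 4 sample without ROS, WT B and S265D, and Hoxb9 in S265D-H1120Y.

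Hoxc10, a posterior gene used in the lumbar region and the hindlimb, was at 51.9 and 54.8 FPKM at day 0. It was at 29.7 FPKM with ROS and 25.0 without at day 4, at 29.6 with and 33.6 without at day 8, and at 21.7 (WT A), 21.5 (WT B), 16.7 (S265A), 21.0 (S265D) and 13.0 (S265D-H1120Y) in transduced cells. All 9 later samples lay below both day 0 samples, and it fell by 0.97 on the log2 scale at day 4 (SE 0.16, adjusted p = 0.00847, limma) and by 0.75 at day 8 (SE 0.16, adjusted p = 0.0145). Hoxc6, a thoracic gene, was at 40.9 and 37.8 FPKM at day 0, 23.4 and 25.9 at day 4, 25.5 and 24.5 at day 8 (ROS first in each pair), and between 11.7 (WT A) and 27 (WT B) in transduced cells. It fell by 0.65 on the log2 scale at day 8 (SE 0.14, adjusted p = 0.0139, limma). Leaving out either day 0 sample left the fit fewer residual degrees of freedom, and these calls of Hoxc10 and Hoxc6 were then lost.

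Hoxc9 had the smallest spread of the 30 tested members in the time course, and Hoxa10 did not pass at day 4 or day 8. Hoxc9 was at 17.3 and 18.0 FPKM at day 0, 18.1 and 18.5 at day 4, and 17.6 and 19.2 at day 8, an SD of 0.05 in log2 values over these 6 samples. In the transduced samples it was at 9.46 (WT A) to 13.5 (WT B), below the whole time course. Hoxa10 was at 16.8 and 17.1 FPKM at day 0, 18.5 and 21.8 at day 4, 14.7 and 18.9 at day 8, and 11.5 to 15.8 in transduced cells. The log2 difference of day 8 from day 0 was 0.06 (SE 0.13) for Hoxc9 and −0.02 (SE 0.13) for Hoxa10, with adjusted p of 0.693 and 0.884 in limma.

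To ask how stable the Hox genes were through differentiation, days 4 and 8 were compared with day 0 by limma on log2(FPKM + 0.1), with day and ROS as terms. At day 4, 19 of 30 members tested passed an adjusted p of 0.05 (63.3%), against 49.3% of all 13472 genes tested, and at day 8 again 19 (63.3%), against 57.5%. Most of the members called were lower. At day 4, 13 members fell (43.3%, against 24.1% of all genes) and 6 rose (20%, against 25.2%), and at day 8, 14 fell (46.7%, against 29.2%) and 5 rose (16.7%, against 28.3%). The median log2 difference of the members was −0.29 at day 4 and −0.33 at day 8, beside 0.00 and −0.05 for all genes tested. The day 0 and day 8 samples did not overlap at 23 of 30 members (76.7%), against 78.6% of all genes tested. A gap between day 0 and later samples, where named here for a gene, is thus no trait of the members. With either day 0 sample left out, 8 members passed at day 4, and 10 (without the first sample) or 11 (without the second) at day 8. Called without either sample were 7 members at day 4 (Hoxa2, Hoxa4, Hoxa11, Hoxb5, Hoxc4, Hoxc5 and Hoxc11) and 10 at day 8 (Hoxa4, Hoxa11, Hoxb3, Hoxb5, Hoxb6, Hoxb13, Hoxc4, Hoxc5, Hoxc11 and Hoxc13). Cells change as a whole during adipogenesis, and fewer cells of a type and less RNA per cell cannot be told apart in these bulk samples.

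**Figure D3:**
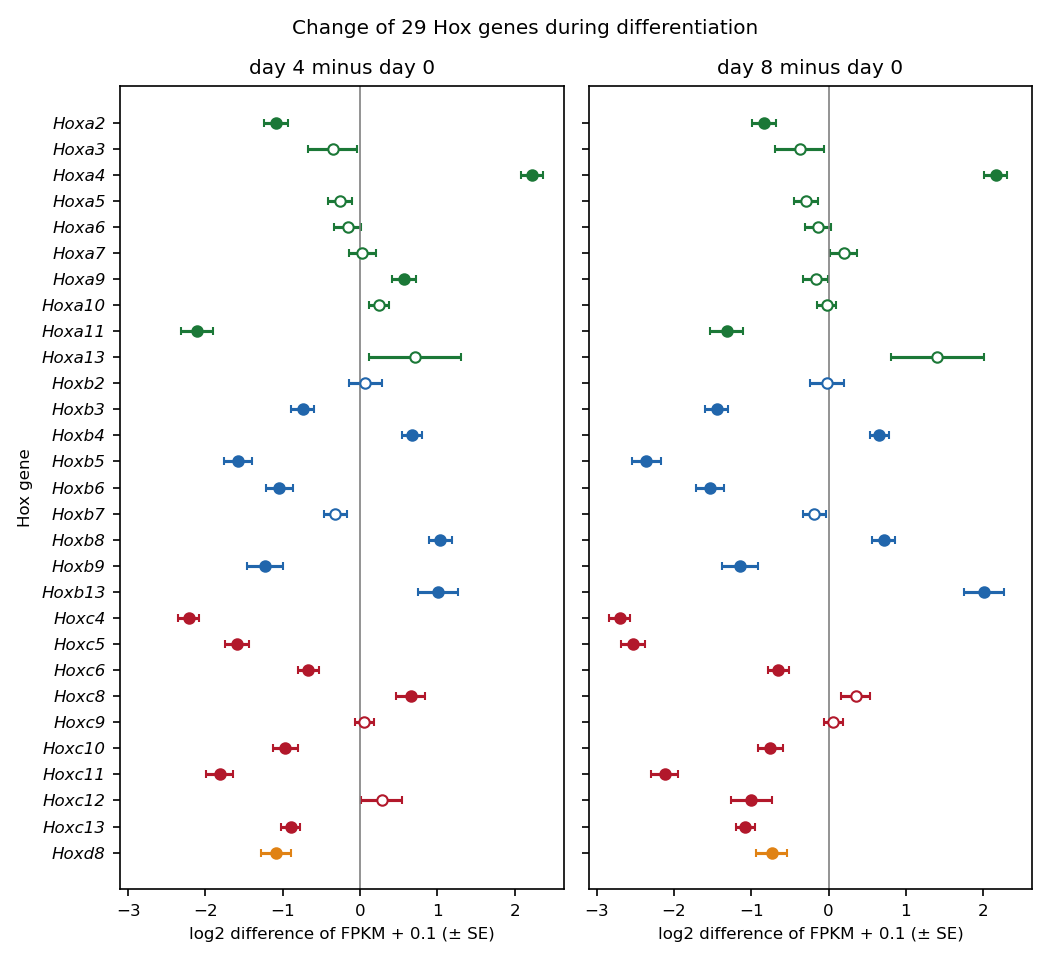
Log2 difference of FPKM + 0.1 (± SE from limma) of 29 tested Hox genes at day 4 and day 8 against day 0, coloured by cluster, with filled points for an adjusted p under 0.05. Most filled points lie left of 0, HoxC most of all, and Hoxa4, Hoxb4, Hoxb8 and Hoxb13 lie to the right in both panels.

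The clusters differed in what their members did, with no test of the difference between clusters. In HoxC, 6 of 9 members fell and 1 rose at day 4, and 7 fell and 0 rose at day 8, with a median log2 difference of −0.90 and −1.0. HoxB split, with 4 of 9 lower and 3 higher at both days. In HoxA, 2 of 11 were lower and 2 higher at each day, and 7 did not pass. Hoxd8, the single HoxD gene tested, fell by 1.08 at day 4 and by 0.74 at day 8 on the log2 scale, with an adjusted p of 0.0609 to 0.143 without the first or second day 0 sample.

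The largest falls at day 8 were those of the neighbouring anterior genes Hoxc4 and Hoxc5. Hoxc4 was at 4.53 and 3.95 FPKM at day 0, 0.828 with ROS and 0.833 without at day 4, and 0.574 and 0.558 at day 8. It fell by 2.70 on the log2 scale at day 8 (SE 0.14, adjusted p = 0.000334, limma). In transduced adipocytes it was at 0.976 to 1.41 FPKM, below day 0 and above the 2 untransduced day 8 samples. Hoxc5, whose upstream stretch is shown above, was at 4.28 and 3.83 FPKM at day 0, 1.24 and 1.31 at day 4, and 0.521 and 0.726 at day 8, and fell by 2.53 (SE 0.15, adjusted p = 0.000511). Both genes were at similar levels with and without ROS at day 4.

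Hoxb5, the HoxB paralog of Hoxc5, moved in the same direction. It was at 4.48 and 4.66 FPKM at day 0, 1.43 and 1.5 at day 4, 0.627 and 1.05 at day 8, and 0.977 to 1.65 in transduced cells. Its log2 difference was −2.35 at day 8 (SE 0.18, adjusted p = 0.000912, limma). The third member of that paralog group, Hoxa5, was at 4.05 and 4.24 FPKM at day 0 and 3.12 to 3.66 at days 4 and 8, a difference of −0.29 at day 8 that did not pass (SE 0.15, adjusted p = 0.169). Group 5 was thus at like levels in HoxA, HoxB and HoxC at day 0, between 3.83 and 4.66 FPKM, and at day 8 only Hoxa5 stayed above 3.

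**Figure D4:**
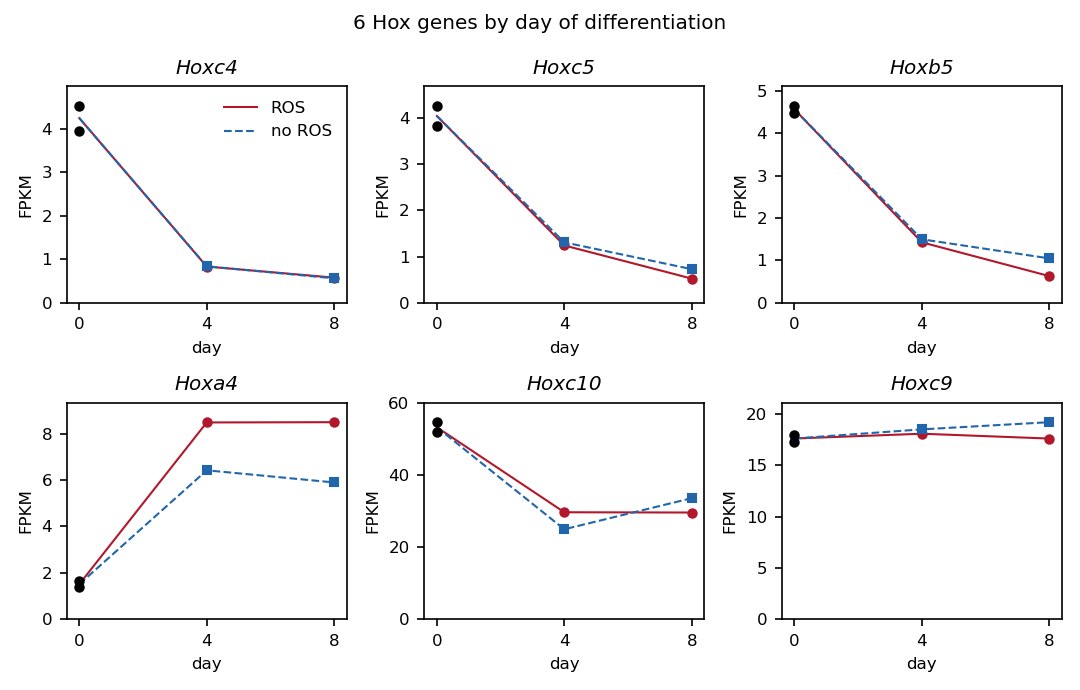
FPKM of 6 Hox genes by day, with both day 0 samples in black, ROS in red (solid line) and no ROS in blue (dashed line), and each line starting at the day 0 mean. Hoxc4, Hoxc5 and Hoxb5 drop from 3.83 to 4.66 FPKM at day 0 to 1.05 or less at day 8, Hoxa4 climbs from 1.38 and 1.64 to 5.90 or more, and Hoxc9 is flat.

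Hoxa4 rose most. Its values were 1.38 and 1.64 FPKM at day 0, 8.49 with ROS and 6.42 without at day 4, 8.50 and 5.90 at day 8, 11.4 in WT A, 4.96 in WT B, 6.68 in S265A, 5.47 in S265D and 4.72 in S265D-H1120Y. The log2 difference was 2.22 at day 4 (SE 0.15, adjusted p = 0.000738) and 2.16 at day 8 (SE 0.15, adjusted p = 0.000673, limma). None of the 9 differentiated samples overlapped day 0, and day 8 alone lay apart from day 0 at 78.6% of all genes tested. Other members of paralog group 4 took other courses, since Hoxb4 went from 2.67 and 2.76 FPKM to between 4.10 and 4.68 (day 8 difference 0.66, SE 0.12, adjusted p = 0.0104, and 0.0894 or 0.0715 without the first or second day 0 sample), Hoxc4 fell, and Hoxd4 was near 0. The gene body of Hoxa4 lies within the longer Hoxa3 transcript, and reads there could be split between them. Hoxa3 itself was at 0.715 to 1.5 FPKM in the time course and did not follow Hoxa4 upwards. The noncoding transcript AK039882 also spans Hoxa4 on the genome, and it rose with it. AK039882 was at 0.663 and 0.260 FPKM at day 0 and 1.96 to 2.53 later in the time course. Whether reads are shared between Hoxa4 and AK039882 was not tested.

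Of the anterior members of groups 1 to 3, Hoxb3 and Hoxa2 fell at day 8. Hoxb3 was at 3.89 and 3.27 FPKM at day 0, 1.86 and 2.35 at day 4 and 1.12 and 1.38 at day 8, and fell by 1.45 at day 8 (SE 0.15, adjusted p = 0.00179, limma). Hoxb2 was at 6.29 and 7.48 FPKM at day 0 and 5.98 to 8.66 later in the time course. Hoxa2 went from 0.504 and 0.394 FPKM to 0.278 and 0.149 (log2 difference −0.83, SE 0.16, adjusted p = 0.0101, and 0.0761 without the first day 0 sample), on as few as 594 mapped bases in a time-course sample.

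Among the thoracic groups 6 to 8, Hoxb6 fell, Hoxb8 rose, and Hoxa6, Hoxa7 and Hoxb7 did not pass at either day. Hoxb6 was at 12.0 and 13.0 FPKM at day 0, 6.37 and 5.65 at day 4, 3.73 and 4.83 at day 8 and 2.47 to 5.20 in transduced cells, with a day 8 difference of −1.53 (SE 0.18, adjusted p = 0.00255, limma). Hoxb8 was at 2.07 and 2.30 FPKM at day 0, 5.35 and 3.93 at day 4 and 4.71 and 2.80 at day 8, a rise of 0.71 at day 8 (SE 0.15, adjusted p = 0.0138) that did not pass without the first or second day 0 sample (0.103 and 0.0642) or with the ROS label as a block (0.0772). Their neighbour Hoxb7, which lies between them, had no call. Hoxb7 was at 7.84 and 8.06 FPKM at day 0, 6.24 and 6.44 at day 4 and 6.10 and 7.99 at day 8. Hoxa6 was at 2.70 and 2.53 FPKM at day 0, 2.05 and 2.65 at day 4 and 2.51 and 2.24 at day 8. Hoxa7 was at 1.37 and 1.75 FPKM at day 0, 1.63 and 1.54 at day 4 and 2.03 and 1.58 at day 8. The adjusted p at day 8 was 0.323 for Hoxb7, 0.528 for Hoxa6 and 0.372 for Hoxa7 in limma. Hoxc8 rose at day 4, from 7.80 and 5.78 to 11 and 10.3 FPKM (difference 0.65, adjusted p = 0.0414), which did not pass without the first or second day 0 sample (differences of 0.87 and 0.44, adjusted p of 0.0576 and 0.205) or with the block (0.0546), and was at 8.39 and 8.82 at day 8 (adjusted p = 0.169).

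Of the posterior groups 9 to 13, Hoxb9, Hoxa11, Hoxc10, Hoxc11, Hoxc12 and Hoxc13 were lower at day 8 and Hoxb13 higher. Hoxc11 was at 7.78 and 8.18 FPKM at day 0 and 2.31, 2.08, 1.53 and 2.03 in the 4 later time-course samples, a difference of −2.12 at day 8 (SE 0.17, adjusted p = 0.00105, limma). Hoxc13 was at 6.83 and 6.86 FPKM at day 0 and 2.64 to 4.31 later. Hoxc12 passed at day 8 alone of the 2 days, with 1.99 and 2.33 FPKM at day 0, 2.66 and 2.60 at day 4 and 0.718 and 1.46 at day 8, and its call was lost without the first or second day 0 sample (adjusted p of 0.0871 and 0.128). Hoxb13, with 0.194 and 0.0812 FPKM at day 0 and 0.757 and 0.903 at day 8, passed with 1188 and 495 mapped bases in the day 0 samples and 5051 and 5154 at day 8.

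The time courses of 6 further members are given in full, with the sample with ROS first at days 4 and 8. Hoxa11 was at 1.61 and 2.28 FPKM at day 0, 0.340 and 0.398 at day 4 and 0.582 and 0.863 at day 8. Hoxd8 was at 0.701 and 0.644 FPKM at day 0, 0.221 and 0.314 at day 4 and 0.411 and 0.321 at day 8. Hoxb4 was at 2.67 and 2.76 FPKM at day 0, 4.68 and 4.10 at day 4 and 4.55 and 4.14 at day 8. The later samples of Hoxa11 and Hoxd8 all lay below day 0, and those of Hoxb4 all above it. Hoxa3 was at 1.5 and 1.23 FPKM at day 0, 0.933 and 1.16 at day 4 and 1.45 and 0.715 at day 8. At day 4 both samples of Hoxa3 lay below day 0, and it did not pass. Hoxa5 was at 4.05 and 4.24 FPKM at day 0, 3.23 and 3.65 at day 4 and 3.66 and 3.12 at day 8. Hoxb2 was at 6.29 and 7.48 FPKM at day 0, 8.66 and 5.98 at day 4 and 6.37 and 7.17 at day 8. The later samples of Hoxa5 lay below both day 0 samples without passing the test, and those of Hoxb2 overlapped day 0.

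Hoxa9 and Hoxb9, paralogs of Hoxc9, differed from its flat course. Hoxa9 was at 8.95 and 8.98 FPKM at day 0, 15.4 with ROS and 11.5 without at day 4, and 10.7 and 5.91 at day 8. It rose at day 4 (difference 0.57, SE 0.16, adjusted p = 0.0381, limma), a call lost without either day 0 sample (0.169 each) and with the ROS label as a block (0.138), and at day 8 the 2 arms lay on either side of day 0. Hoxb9 was at 14.3 and 14.0 FPKM at day 0, 5.72 and 6.27 at day 4, and 4.50 and 8.96 at day 8, a fall of 1.14 at day 8 (SE 0.23, adjusted p = 0.0125, and 0.0702 or 0.0625 without the first or second day 0 sample).

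Days 4 and 8 were then set against each other. Between them 0 of 30 members passed in limma, against 2.15% of all genes (290 of 13472), and 9 members had an unadjusted p under 0.05, as had 4299 of all genes. The lowest adjusted p, 0.0557, was that of Hoxc5, with a log2 difference of −0.94 (SE 0.15). Alternatives to this fit called up to 4 members, Hoxc5 and Hoxc12 among them in 4 of the settings. In 24 of 30 members the day 8 samples with and without ROS lay on the same side of the day 0 mean, and in 26 of 30 at day 4. The same count was not made over all genes, so it describes these members only.

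ROS itself was compared over days 4 and 8 together. No member passed (0 of 30), nor did any other gene (0% of 13472), with an unadjusted p under 0.05 in 5 members and in 2720 genes. These 5 were Hoxa2, Hoxa4, Hoxa9, Hoxb8 and Hoxc13. Hoxc13 had the lowest p, at 3.05 FPKM with and 4.31 without ROS at day 4, and 2.64 with and 3.88 without at day 8 (log2 difference −0.51, SE 0.12, adjusted p = 0.168, limma). At day 8, 2 of 30 members differed 2-fold or more between the single samples with and without ROS (6.67%), against 17.7% of all genes. The 2 samples of day 0 differed that much in 2 of 30 members (6.67%), against 5.79%.

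The spread of the members over the time course was a little above that of other genes. The median SD of log2 values over the 6 samples was 0.53 for 30 members and 0.43 for all 13472 genes, and over all 11 samples 0.58 and 0.48 (0.57 for the members without WT A). As a description of the profile across the 30 members, Spearman's rho was 0.991 between the 2 day 0 samples and 0.712 between the first day 0 sample and day 8 with ROS. The same day 0 sample had 0.807 with day 8 without ROS, and 0.811 and 0.830 with day 4 with and without ROS. Over the 15 pairs of the time course rho had a median of 0.830 and a low of 0.709. The points share their library, and no p-value is attached.

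In the transduced adipocytes the 3 comparisons S265A with WT, S265D with WT and S265D-H1120Y with S265D called 0 of 30 members each, and 0% of all genes in each of them. Leaving out WT A left 1 WT sample, and that fit took its spread from the 2 day 0 samples, so it cannot decide these comparisons. In the fit of the 5 transduced samples, 0, 0 and 1 members had an unadjusted p under 0.05, and 74, 59 and 159 genes. This fit had 1 residual degree of freedom, from the WT pair. The 2 WT samples lay 2-fold or more apart at 9 of 30 members (30%), against 24.1% of all genes. The member with p under 0.05 was Hoxa2, at 0.749 FPKM in S265D and 0.154 in S265D-H1120Y (log2 difference −1.74, SE 0.59, adjusted p = 1.0).

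WT A was the highest of the 11 samples at Hoxa11, Hoxa13 and Hoxd8 and the lowest at Hoxb9. Among the other tested members it was also the highest at Hoxa3, Hoxa4, Hoxa9 and Hoxb8. It was the lowest at Hoxa5, Hoxb2, Hoxc6, Hoxc9 and Hoxc13 too. Hoxa13, a gene of the distal limb and genital region, was at 3.89 FPKM in WT A, 0 in WT B, 0.408 in S265A, 0.387 in S265D, 0.226 in S265D-H1120Y and at most 0.283 in the time course. Hoxa11 was at 4.54 FPKM in WT A, 0.228 in WT B, 1.42 in S265A, 0.543 in S265D and 1.16 in S265D-H1120Y, with 1.61 and 2.28 at day 0. Hoxd8 was at 5.4 FPKM in WT A, 0.170 in WT B, 1.17 in S265A, 0.604 in S265D and 1.38 in S265D-H1120Y. Hoxb9 went the other way, with 1.20 FPKM in WT A, 8.15 in WT B, 7.13 in S265A, 7.69 in S265D and 18.5 in S265D-H1120Y. Hoxa11, Hoxa13, Hoxd8 and Hoxb9 were the 4 members (13.3%) at which WT A lay at least 2-fold outside the range of the other 4 transduced samples. The share over all genes was 8.64%.

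**Figure D5:**
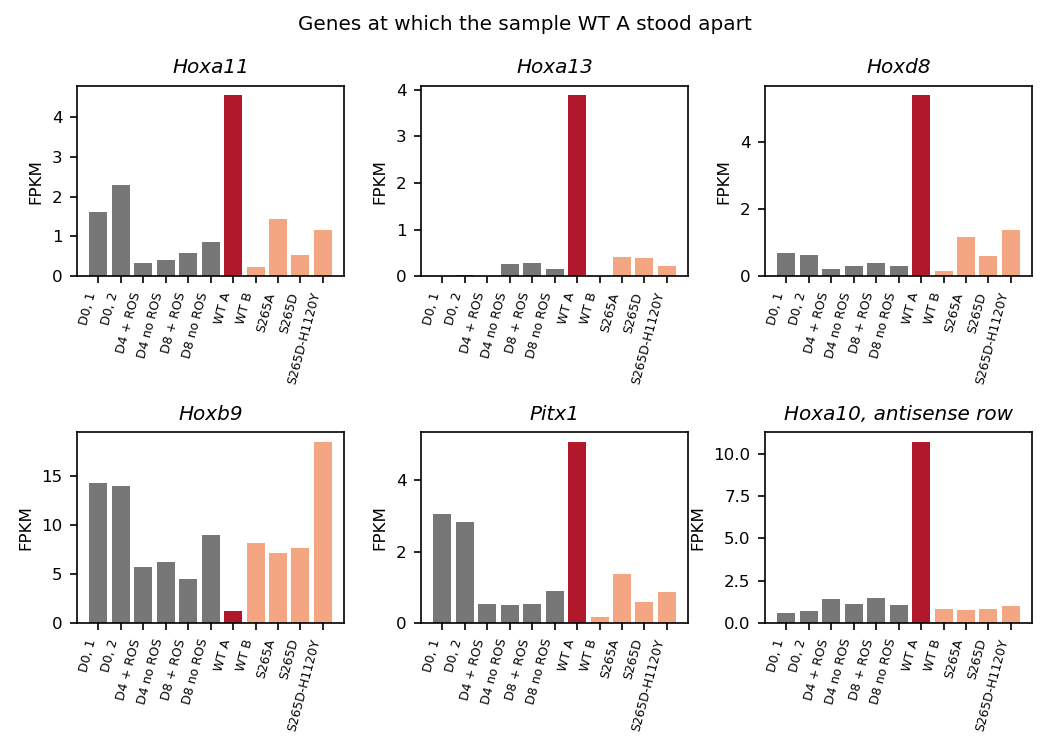
FPKM of Hoxa11, Hoxa13, Hoxd8, Hoxb9, the hindlimb gene Pitx1 and the antisense row of Hoxa10 in the 11 samples (grey bars for the time course, red for WT A, pale for the other transduced samples). WT A is the highest sample in every panel other than that of Hoxb9, where it is the lowest.

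Hoxa11, Hoxa13 and Hoxd8 were also the 3 members at which WT B lay at least 2-fold outside the others, on the low side. That is 10%, against 2.45% of all genes, and the mutants lay between the 2 WT samples at these genes. Pitx1, a regulator of hindlimb identity, was highest in WT A too (5.08 FPKM) and lowest in WT B (0.176), with 0.588 to 1.38 in the mutants and 3.06 and 2.82 at day 0. It was among the 10 genes of position and depot called lower at day 8, which are named below. Of these, En1 was also highest in WT A among the transduced samples. Emx2, Krt19, Shox2, Tbx15 and Thbd were instead lowest there. S265D-H1120Y lay 2-fold outside at Hoxb9 (18.5 FPKM), Hoxb13 (0.0495, on 298 mapped bases) and Hoxc12 (0.392), or 10% against 2.9% of all genes. S265A and S265D did so at no member, against 0.965% and 0.995% of all genes. Over the 30 members, Spearman's rho of WT A with the 10 other samples was 0.479 to 0.757, whereas the other 4 transduced samples had 0.865 to 0.983 among themselves. The cause of the WT A profile was not tested.

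The other members with a mean FPKM of at least 1 varied less among the transduced samples. Values are given in the order WT A, WT B, S265A, S265D and S265D-H1120Y. Hoxc6 was at 11.7, 27, 12.5, 24.3 and 16.0 FPKM. Hoxc9 was at 9.46, 13.5, 11.4, 9.86 and 10.6 FPKM. Hoxc8 was at 7.58, 10.2, 7.60, 12.5 and 6.61 FPKM. Hoxc6 was thus about as low in S265A as in WT A. Hoxc13 was at 2.22, 5.71, 3.99, 4.03 and 5.26 FPKM. Hoxc11 was at 2.13, 2.04, 1.80, 2.05 and 1.32 FPKM. Hoxc12 was at 0.793, 2.97, 1.53, 1.61 and 0.392 FPKM. Hoxc12 was lowest in S265D-H1120Y, and Hoxc11 lay between 2.04 and 2.13 in WT A, WT B and S265D. Hoxc4 was at 0.976, 1.36, 1.32, 1.41 and 1.12 FPKM. Hoxc5 was at 1.12, 1.25, 0.603, 1.09 and 0.759 FPKM. Hoxb5 was at 1.16, 1.65, 0.977, 1.53 and 1.01 FPKM. These 3 genes, which fell most at day 8 of the time course, lay between 0.603 and 1.65 FPKM in all 5.

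In HoxA and HoxB the remaining members with a mean FPKM of at least 1 spanned less than 4-fold. Hoxa9 was at 15.7, 9.67, 10.2, 10.9 and 8.54 FPKM. Hoxa10 was at 15.8, 14.1, 14.6, 15.4 and 11.5 FPKM. Hoxa3 was at 2.50, 1.82, 1.14, 1.88 and 0.960 FPKM. WT A was the highest of the 5 at these 3 genes. Hoxa5 was at 1.82, 3.02, 2.00, 2.92 and 2.09 FPKM. Hoxa6 was at 1.19, 1.66, 1.96, 1.60 and 1.14 FPKM. Hoxa7 was at 1.51, 2.06, 1.27, 2.33 and 0.798 FPKM. Hoxa7 was lowest in S265D-H1120Y. Hoxb2 was at 3.33, 6.74, 5.06, 5.64 and 4.92 FPKM. Hoxb3 was at 1.71, 1.68, 1.58, 2.15 and 1.09 FPKM. Hoxb4 was at 2.69, 3.75, 2.96, 4.80 and 3.19 FPKM. At Hoxb2 and Hoxb4 WT A was the lowest of the 5. Hoxb6 was at 3.14, 5.20, 2.82, 3.69 and 2.47 FPKM. Hoxb7 was at 5.59, 8.4, 6.72, 9.39 and 5.38 FPKM. Hoxb8 was at 5.44, 3.55, 2.62, 4.52 and 1.55 FPKM. Hoxb8 was highest in WT A and lowest in S265D-H1120Y.

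The untransduced day 8 sample with ROS differed from all 5 transduced samples at few Hox genes. It was above them at 5 of 30 members, Hoxa5, Hoxa6, Hoxb13, Hoxc9 and Hoxc10 (16.7%, against 23.8% of all genes), and below them at 3, Hoxb5, Hoxc4 and Hoxc5 (10%, against 29.5%). Transduction and any difference between the 2 experiments cannot be told apart in that comparison.

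The cofactors and chromatin regulators of the Hox genes were present throughout, and their calls come from the same limma fit, in which 29.2% of all genes were lower and 28.3% higher at day 8, with a median log2 difference of −0.05. All 9 TALE homeobox genes, which encode the Pbx, Meis and Pknox partners that Hox proteins bind DNA with, had a mean FPKM of at least 1. At day 8, 5 of 9 were lower than at day 0 (Meis1, Meis2 and Meis3 among them) and 1 (Pknox1) higher, with a median difference of −0.61. Of 17 Polycomb genes, which encode repressors of silent Hox genes, 6 were higher (Ezh1, Jarid2 and Ring1 among them) and 4 lower (Cbx6, Pcgf2, Phc2 and Rnf2) at day 8, near the shares over all genes, with a median of −0.16. The list of 12 Trithorax and H3K27 demethylase genes also held Dot1l and Ctcf, which belong to neither class. Of the 12, 2 were higher (Dot1l and Kdm6b) and 4 lower (Ash2l, Ctcf, Mll1 and Mll2), with a median of 0.05.

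Retinoic acid is a classical inducer of anterior Hox genes. Of 8 tested genes of its metabolism and reception, 4 fell (Crabp1, Crabp2, Rarb and Rarg) and 2 rose (Aldh1a1 and Cyp26b1) at day 8, against 29.2% lower and 28.3% higher over all genes, and the median difference was −0.85. Crabp1, which encodes a cellular retinoic acid binding protein, was at 22.8 and 25.2 FPKM at day 0 and at 0.132 to 1.51 in the later time course, and Rarg, a retinoic acid receptor, at 47.3 and 52.5 and then 7.64 to 14.7. The 10 ParaHox and related homeobox genes outside the clusters (Cdx, Gsx, Pdx1, Evx, Mnx1 and Gbx2) were not expressed at a mean FPKM of 0.1.

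Other genes of position and depot were counted in the same way. Of 17 tested, 10 were lower at day 8 (Emx2, En1, Krt19, Nr2f2, Pitx1, Sfrp2, Shox2, Tbx15, Tbx18 and Thbd) and 2 higher (Irx3 among them), against 29.2% and 28.3% of all genes, with a median difference of −0.96. Tbx15, a T-box gene of subcutaneous fat, was at 38.0 and 33.4 FPKM at day 0 and 9.24 with and 16.4 without ROS at day 8. Shox2, a limb homeobox gene, went from 17.8 and 17.2 to 5.77 and 9.13. Zic1, Hand2 and Six2 were at 0 in all samples.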

How the data were processed

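RNA-seq of 11 im-scWAT samples was analysed, in groups taken from the sample labels. The authors prepared TruSeq libraries, sequenced them on a HiSeq instrument, mapped the reads with Burrows-Wheeler aligner against mm9 and its UCSC transcripts, and realigned them locally (versions not given in the sources used here). The authors deposited a strand-specific FPKM for each transcript, together with its log10 and its log2. The deposited signal, mapped bases per transcript, is not a count of reads, so no count test was used. Neither samples nor replicates were pooled.

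Each coding gene was read from its representative sense transcript. Genes with a mean FPKM of at least 0.1 over the 11 samples (13472, of which 30 were members) were tested on log2(FPKM + 0.1) with limma 3.58.1 under R 4.3.3, and p-values were adjusted by Benjamini-Hochberg over all of them (threshold 0.05). The pseudocount understates changes of weak genes. The time course was fitted with day and ROS as additive terms (6 samples, 2 residual degrees of freedom), and the transduced samples with group means (5 samples, 1 residual degree of freedom). Leaving out a day 0 sample lowers the residual degrees of freedom of the time course. A call lost that way does not show that the estimate rests on the sample left out. The script was tested on simulated data. Some members and listed genes are counted but not reported here by value, and some upstream stretches are not reported here. By rule, members with a mean FPKM of at least 1 are given with their value in every sample where they are reported, and other members by range or count. Hoxa2, Hoxa13 and Hoxb13, below that mean, are given by sample too, a choice made after their values were seen. The members and gene lists were chosen with earlier results of these data known, and the lists were counted without a set test. Upstream sequence was read from the NCBIM37 (mm9) genome, with starts from the files and from GENCODE M1 up to 2000 bases before them, for 19853 of 21452 coding genes. Alternatives changed the pseudocount, the filter, the transcript, the scaling, the model and the samples. Tables and figures were made with Python 3.11.15, pandas 2.3.3, numpy 2.4.6 and matplotlib 3.10.9. Depth limits the weakest genes, since few mapped bases support them.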

Additional observations from a re-analysis of the deposited data

Results flagged for a closer look

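Signals outside the sense rows of the members were looked at in the antisense rows of the 39 genes and in other transcripts of the 4 clusters, and are listed where a sample reached an FPKM of at least 1 and at least 2 times the higher day 0 sample. The antisense row of Hoxa10 was at 10.7 FPKM in WT A, against at most 1.45 in the other 10 samples and at most 0.697 at day 0. Hoxa11as, the transcript antisense to Hoxa11, was at 3.81 FPKM in WT A, against 1.13 and 1.01 at day 0 and 0.147 in WT B.

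The antisense row of Hoxb3 reached 1.33 FPKM at day 4 with ROS and 0.982 without, against at most 0.315 at day 0, and was at 1.06 in WT B and 1.12 in S265D. The antisense row of Hoxc9 reached 1.28 FPKM at day 8 with ROS and 1.15 without, against at most 0.431 at day 0 and at most 0.731 in the remaining samples. Of the noncoding transcripts of HoxA, AK142386 reached 4.51 FPKM in S265D-H1120Y, with 2.28 to 3.76 in the other transduced samples and 1.83 and 1.25 at day 0. AK039882 reached 2.53 FPKM at day 8 without ROS and was at 1.96 to 2.16 in the other 3 later time-course samples, with 0.663 and 0.260 at day 0. None of these values was tested.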

How the results depend on the processing

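The numbers of members called were the less firm part. Against 19 members at day 4 (6637 genes) and 19 at day 8 (7751 genes), no filter on the mean gave 9 (3548 genes) and 10 (4905), and group means over all 11 samples gave 5 (1757) and 8 (2809). Leaving out either day 0 sample gave 8 members at day 4 (3126 to 3254 genes) and 10 to 11 at day 8 (4203 to 4756). Between days 4 and 8, the 290 genes became 1446 with a pseudocount of 1, 70 with 0.01, 49 without the filter, 1125 with a mean of at least 1, 984 with median-of-ratios scaling, 0 with group means over 11 or 6 samples, 2 with the ROS label as a block, 0 without either day 0 sample, and 1591 with a variance trend, which was chosen after seeing the data. Members called there were 3 with a pseudocount of 1, 4 with a mean of at least 1, 2 with scaling and 3 with the trend, against 0. The cause was not tested. No sign of a called member reversed. Members called under every alternative were Hoxb5, Hoxc4, Hoxc5 and Hoxc11 at day 4, and these with Hoxa4, Hoxb3 and Hoxb6 at day 8. The comparisons of ROS and of the mutants gave 0 genes under every alternative run. Cluster shares moved by less than the SD pooled over the day 0 and WT pairs, which is set mostly by the WT pair. WT A is part of that pair, so this SD cannot decide whether the shares hold without WT A. With the ROS label as a replicate block, 16 members were called at day 4 and 17 at day 8. The block lost Hoxa9, Hoxb3 (adjusted p = 0.0503) and Hoxc8 at day 4. Among the transduced samples alone, no paired analysis was possible because their labels share no replicate number.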
